A study of Mus musculus with 384 samples.

Results

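The samples described here are the 31 targeted RNA libraries that carry the region label Pit, dDG or vDG and a value of *Anxa2* over 1000. They are 31 of 95 libraries with these labels and of 380 libraries with values in the series. The question put to them was whether the label groups of the mice, by status (MS or Co) and injection (inject or naive), differed in the expression of the 69 assayed genes. The value of *Anxa2* chose the samples, so its levels are described below and no difference in it is read as a result, although it stayed among the 69 genes over which p-values were adjusted.

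The libraries come from male Balb/c mice, whose age the labels give as postnatal day 9, whereas the study's methods describe micropunches taken from adult brains. The mice fall into 4 label groups of 8 (Co naive, Co inject, MS naive and MS inject), and 12 region labels were given for each of the 32 mice. The study contrasted fragmented with increased maternal care and, later, a supportive with an aversive social environment, but its group names were not matched to the label groups, and the sources used here do not say what was injected. According to the methods every mouse of the study went through an early and an adult condition. Whether this holds for mice labelled postnatal day 9 is not known, and none of the label groups is known to be unmanipulated. The labels dDG and vDG stand for the dorsal and ventral dentate gyrus, the input field of the hippocampus, while Pit is not spelled out and has no counterpart among the 12 regions that the methods name.

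Annexin A2, the product of *Anxa2*, binds phospholipid membranes in the presence of calcium and works at the cell surface, in exocytosis and on endosomes. TMEM176A, the product of *Tmem176a*, is a membrane protein with several membrane-spanning stretches. Most assays stem from human genes whose response to glucocorticoid receptor activation varies with risk variants for depression or schizophrenia. This receptor, encoded by *Nr3c1*, is held ready for its hormone by the chaperone HSP90 and moves to the nucleus once the hormone binds, and the co-chaperone FKBP5 lowers its affinity for the hormone. The label comparisons thus concern a set of genes from translation, protein turnover, mitochondria, cell cycle and membrane transport rather than a single pathway.

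The 31 members were spread evenly over the label groups. Of the samples labelled Pit, 4 of 8 were members in each of the 4 label groups, which is 16 of 32 in all. Of the samples labelled dDG, 2 of 8 were members in each label group, which is 8 of 32. Of those labelled vDG, 2 of 8 were members in Co inject, MS inject and MS naive and 1 of 7 in Co naive, which is 7 of 31. The label groups therefore held 8 Co inject, 7 Co naive, 8 MS inject and 8 MS naive members. According to the methods, each column of a library plate held equal numbers of the experimental groups and a single RNA extraction covered several columns. The plate positions of the samples were not analysed here, so a plate column or an extraction could not be compared. Whether the region labels of these samples are right was not tested, and Pit, dDG and vDG are used below as names of labels only, in the values of *Abcf1* by label too.

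The members come from 23 of 32 mice. A single member came from each of 16 mice, 2 members came from each of 6 mice, and mouse 83 gave 3 (labelled Pit, dDG and vDG). Samples of a mouse are not independent, and the mouse was therefore a block in the fits reported here, unless stated. The correlation fitted for this block in the members was -0.175. A value below 0 makes repeat samples of a mouse count for more, not less, in status and injection. The block is therefore no guard against counting them as independent there. In the table of 69 assays no gene defines the pituitary or the dentate gyrus, so the region labels could not be checked against markers. Members and other samples of these labels differed in more than *Anxa2*. Apart from the vDG-labelled library of mouse 83, they did not overlap in *Slc6a15* (16.6 to 88.1 against 286 to 953) or *Rps12* (29623 to 48750 against 10072 to 22198). Other genes did, such as *Cct7* (658 to 2195 against 458 to 1846). Whether both sets hold like tissue was not tested. Nor is there an assay that would check the status or injection label of a mouse.

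*Anxa2* (chromosome 9, 69453620 to 69491795, plus strand, GRCm38) had normalised read counts from 1901 to 21258 in the members, with a median of 2651. In the other 64 samples of the same labels it ranged from 70.2 to 298, with a median of 159. The member nearest the threshold of 1000 thus had 1901 and the nearest sample outside had 298, and no sample with these labels lay between. In the 285 samples with other region labels the highest value was 817, and none exceeded the threshold. By region label, the members had 1901 to 3885 (Pit), 2092 to 2803 (dDG) and 2006 to 21258 (vDG), so the 3 labels overlapped in the range that the rule selected.

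*Tmem176a* (chromosome 6, 48840919 to 48847071, plus strand, GRCm38) is the other marker given for these samples. It had normalised read counts from 1305 to 5915 in the members, with a median of 4586, and from 131 to 396 in the other 64 samples. No member lay within the range of the other samples. This is a description of how the samples separate, and no test was made of it.

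**Figure D1:**
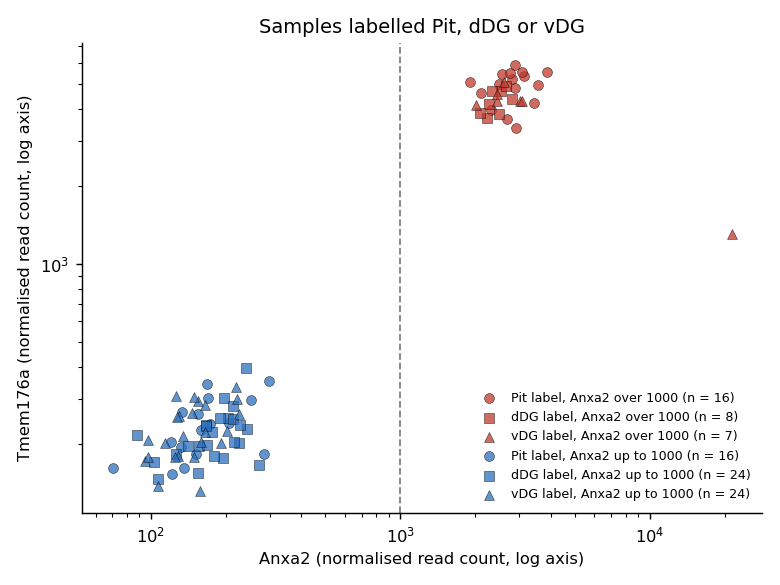
Normalised read counts of *Anxa2* (x axis) and *Tmem176a* (y axis) on log axes in the 95 samples that carry these region labels, with 1 point per sample and the threshold of 1000 as a dashed line. The 31 members lie at the upper right, with samples of all 3 labels, and 1 member labelled vDG stands apart at 21258 for *Anxa2* and 1305 for *Tmem176a*.

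The library of mouse 83 labelled vDG (MS inject) stood apart from the other 30 members. Its values lay outside the range of the other members for 29 of 69 genes, 14 above and 15 below, against at most 13 genes for any other member. Its median correlation with the other members (Pearson's r across 69 genes on the log2 scale, a description of libraries and not a test) was 0.871, and the next lowest was 0.936. *Anxa2* was at 21258 against 1901 to 3885 in the other members. *Slc6a15*, which encodes a transporter of neutral amino acids in neurons, was at 800 against 16.6 to 88.1, and *Slc7a7*, an amino acid transporter subunit, at 793 against 23.4 to 139.

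The same library had 72552 for *Fth1*, the ferritin heavy chain that stores iron, against 9170 to 27648 in the other members. For *Cdkn1a*, which encodes the cell cycle inhibitor p21, it had 400 against 7.3 to 145. Among the genes below the range were *Ociad2* (161 against 1024 to 1858), *Lcn2* (50.5 against 181 to 836), *Nr3c1* (185 against 320 to 831) and *Rps12* (14731 against 29623 to 48750). Of the 29 genes, 17 lay within the range of the 64 samples with low *Anxa2* and 12 did not. The results below are given with this library and, where it changed a call or moved a printed difference, or the status or injection median of a gene list, by more than 1.5 times, without it.

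**Figure D2:**
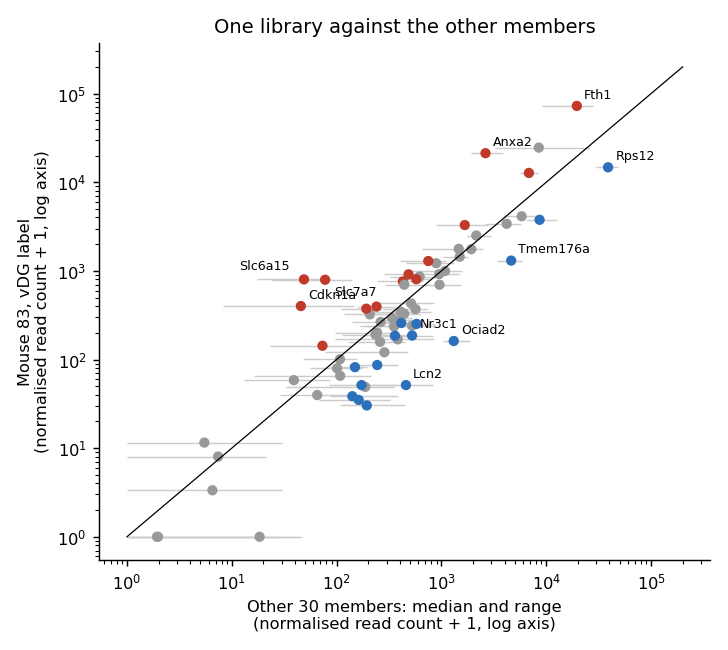
Normalised read count plus 1 of each of the 69 genes in the library of mouse 83 labelled vDG (y axis) against the median and range of the other 30 members (x axis), both on log axes. Red points lie above the range of the other members (14 genes), blue points below it (15 genes), grey points within it, and the line marks equality.

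The depth of the members was 100875 to 227241 reads (median 155534), close to the 83896 to 261007 reads (median 147098) of the samples with low *Anxa2*. It was 126187 to 227241 in the 16 MS and 100875 to 218991 in the 15 Co members. It was 100875 to 227241 in the 16 inject and 126187 to 202595 in the 15 naive members. A count of 3 reads, taken as the floor, corresponded to normalised values between 1.66 and 4.14. Because the libraries were amplified, reads are not separate molecules and the floor describes counting error alone.

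The status comparison asked whether MS and Co members differed. None of the 69 genes passed (0% of the genes tested, limma on log2 values, Benjamini-Hochberg adjusted p under 0.1), while 5 genes had an unadjusted p under 0.05. Of these 5, 1 was higher and 4 were lower in MS, and 3 genes had such a p when the library of mouse 83 labelled vDG was left out. The lowest adjusted p was 0.116, and the median difference of all genes was -0.01 on the log2 scale. For 62 of 69 genes the 95% confidence interval of the MS to Co difference lay within 2-fold in either direction. No gene separated MS from Co members without overlap (0% of 69 genes).

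*Nuak2*, which encodes a kinase related to the AMP-activated kinase, gave the largest status difference. It lies on chromosome 1 from 132316126 to 132333488 (plus strand, GRCm38). The gene was under the study's minimum of 2000 reads over all samples, with 964 reads, of which 69.5% came from the members. The Co inject members had normalised read counts from 10.3 to 32.6 with a median of 20.6, and the Co naive members from 9.31 to 46.2 with a median of 22.2. The MS inject members had 0 to 26.5 with a median of 9.71, and the MS naive members 4.47 to 44.8 with a median of 11.8. Of the 16 MS members, 14 lay below the Co median and 7 below every Co member, and the other members of both groups overlapped. The highest MS value was 44.8, in the MS naive library of mouse 101.

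The log2 difference of *Nuak2* was -1.33 (SE 0.38), with an adjusted p of 0.116 by limma. With a pseudocount of 0.1 in place of 1 it was -1.90 (adjusted p 0.284), and with one of 10 it was -0.66 and passed (0.0762). Without the library of mouse 83 labelled vDG, which was at 0, it was -1.03 with an adjusted p of 0.285. A member had at most 54 reads of this gene and a median of 20, so its value depended on few reads. The status difference was -0.60 (SE 0.40) in the members labelled Pit and -2.36 (SE 0.71) in those labelled dDG or vDG, with adjusted p of 0.901 and 0.389 by limma. Both members at 0 were libraries of mouse 83, labelled dDG and vDG. Without the 3 members of this mouse, a setting added after the data had been seen, the difference was -0.78 (SE 0.27, adjusted p 0.276 by limma) over all labels. It was then -0.86 (SE 0.30, adjusted p 0.761) in the members labelled dDG or vDG, fitted without the mouse as a block.

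*Nuak2* was also the only gene of 69 (1.45%) whose status difference in the members differed from that in the 64 samples with low *Anxa2*. The difference of the differences was -1.40 (SE 0.39), with an adjusted p of 0.0385 by limma. It was -2.07 with a pseudocount of 0.1 in place of 1, where the call was lost (adjusted p 0.235), and -0.66 with a pseudocount of 10. In the low range 58 of 64 samples were at 0 and the highest value was 6.28, so a fall in MS samples was hardly measurable there. Without the library of mouse 83 labelled vDG the adjusted p was 0.133, without all members of mouse 83 it was 0.283, and with the low range limited to samples labelled Pit it was 0.674, a setting added after the data had been seen. For injection and interaction, 0 of 69 genes (0%) differed between the ranges by limma, with 1 and 7 genes at an unadjusted p under 0.05 (2 and 7 without that vDG-labelled library).

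The other genes with the lowest p for status were *Ccndbp1*, *Cd47*, *Mob3a* and *AW209491*, and none of them passed. *Ccndbp1* encodes a helix-loop-helix protein that binds cyclin D. It had 240 to 666 in the Co members (median 404) and 292 to 758 in the MS members (median 486), and 12 of 16 MS members lay above the Co median. Its log2 difference was 0.35 (SE 0.13, adjusted p 0.327). Without the Pit-labelled Co naive library of mouse 239, which had the highest Co value, the difference was 0.43 with an adjusted p of 0.0468.

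*Cd47* encodes a cell surface protein that restrains phagocytosis through its receptor SIRPα. Its normalised read counts ran from 5122 to 7871 in the Co members (median 6416) and from 3978 to 7203 in the MS members (median 5520). Of the 16 MS members, 13 were below the Co median and 7 below every Co member. The log2 difference was small, -0.22 (SE 0.09, adjusted p 0.327). *Mob3a*, of the family of MOB kinase activators, had a difference of -0.41 (SE 0.18) and *AW209491* one of -0.41 (SE 0.18), each with an adjusted p of 0.439. The MS and Co ranges of both genes overlapped, at 27.6 to 127 against 38.8 to 145 for *Mob3a* and 185 to 799 against 262 to 871 for *AW209491*.

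*Tmem176a* showed no call by status. It had 3692 to 5915 in the Co members (median 4586) and 1305 to 5550 in the MS members (median 4469), with a log2 difference of -0.16 (SE 0.12, adjusted p 0.671). With the library of mouse 83 labelled vDG left out, the difference was -0.04. For *Anxa2*, which chose the samples, the Co members had a median of 2794 and the MS members one of 2630.

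The injection comparison asked whether inject and naive members differed. None of the 69 genes passed (0% of the genes tested, limma, adjusted p under 0.1), and 1 gene had an unadjusted p under 0.05, or 2 genes without the library of mouse 83 labelled vDG. The lowest adjusted p was 0.848, and for 63 of 69 genes the 95% confidence interval lay within 2-fold in either direction. No gene separated inject from naive members without overlap (0% of 69 genes).

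The gene with the lowest p was *Mknk2*, whose product phosphorylates the translation initiation factor eIF4E. It had 62.4 to 113 in the inject members (median 94.6) and 54.9 to 173 in the naive members (median 130). All 16 inject members lay below the naive median, whereas the lowest value of all was that of a naive member. By label group the medians were 97.2 (Co inject), 130 (Co naive), 88.9 (MS inject) and 124 (MS naive), so the naive median was above the inject median at either status. The naive members also spread more widely than the inject members. The log2 difference was -0.32 (SE 0.12), and *Mknk2* did not pass (adjusted p 0.848).

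*Pitpnm2*, which encodes a phosphatidylinositol transfer protein, had a log2 difference of -0.24 (SE 0.12) and *Hmgxb3*, an HMG-box gene, one of -0.22 (SE 0.12). *Cdkn1a* differed by 0.63 (SE 0.33) with the library of mouse 83 labelled vDG and by 0.37 without it. The inject members had 16.2 to 400 for *Cdkn1a* and the naive members 7.3 to 87.8, with medians of 46.2 and 44.5. Each of these 3 genes had an adjusted p of 0.848 by limma. *Tmem176a* differed by -0.21 (SE 0.12) between inject and naive members, and by -0.10 without the library of mouse 83 labelled vDG.

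The genes of glucocorticoid receptor signalling did not pass for any label term. *Nr3c1* had 346 to 831 in the Co members (median 506) and 185 to 704 in the MS members (median 524), with a log2 difference of -0.22 (SE 0.16, adjusted p 0.671). Without the library of mouse 83 labelled vDG this difference was -0.11, and the MS median lay slightly above the Co median although the fitted difference was below 0. Its injection difference was -0.01 (SE 0.16, adjusted p 0.985), or 0.09 without that library, and the inject and naive ranges overlapped almost entirely. *Fkbp5* ranged from 95.0 to 850.5 over the members, with differences of 0.14 (SE 0.23) for status and 0.15 (SE 0.23) for injection, which were 0.21 each without that library.

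*Hsp90aa1*, which encodes the stress-inducible HSP90 chaperone, ran from 3249 to 26104 over the members. The inject members had a median of 9847 (3249 to 26104) and the naive members a median of 8907 (4191 to 14351). All naive members were at or below 14351, while 5 of 16 inject members lay above, at 19524 to 26104. These 5 were the Pit-labelled libraries of mice 233 and 235 (Co) and 95 and 97 (MS) and the vDG-labelled library of mouse 83, whereas the lowest value of all also belonged to an inject member. The log2 difference was 0.35 (SE 0.26, adjusted p 0.848) for injection and 0.08 (SE 0.26, adjusted p 0.941) for status, or -0.0081 for status without the library of mouse 83 labelled vDG. The spread between members thus exceeded the difference between the groups.

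**Figure D3:**
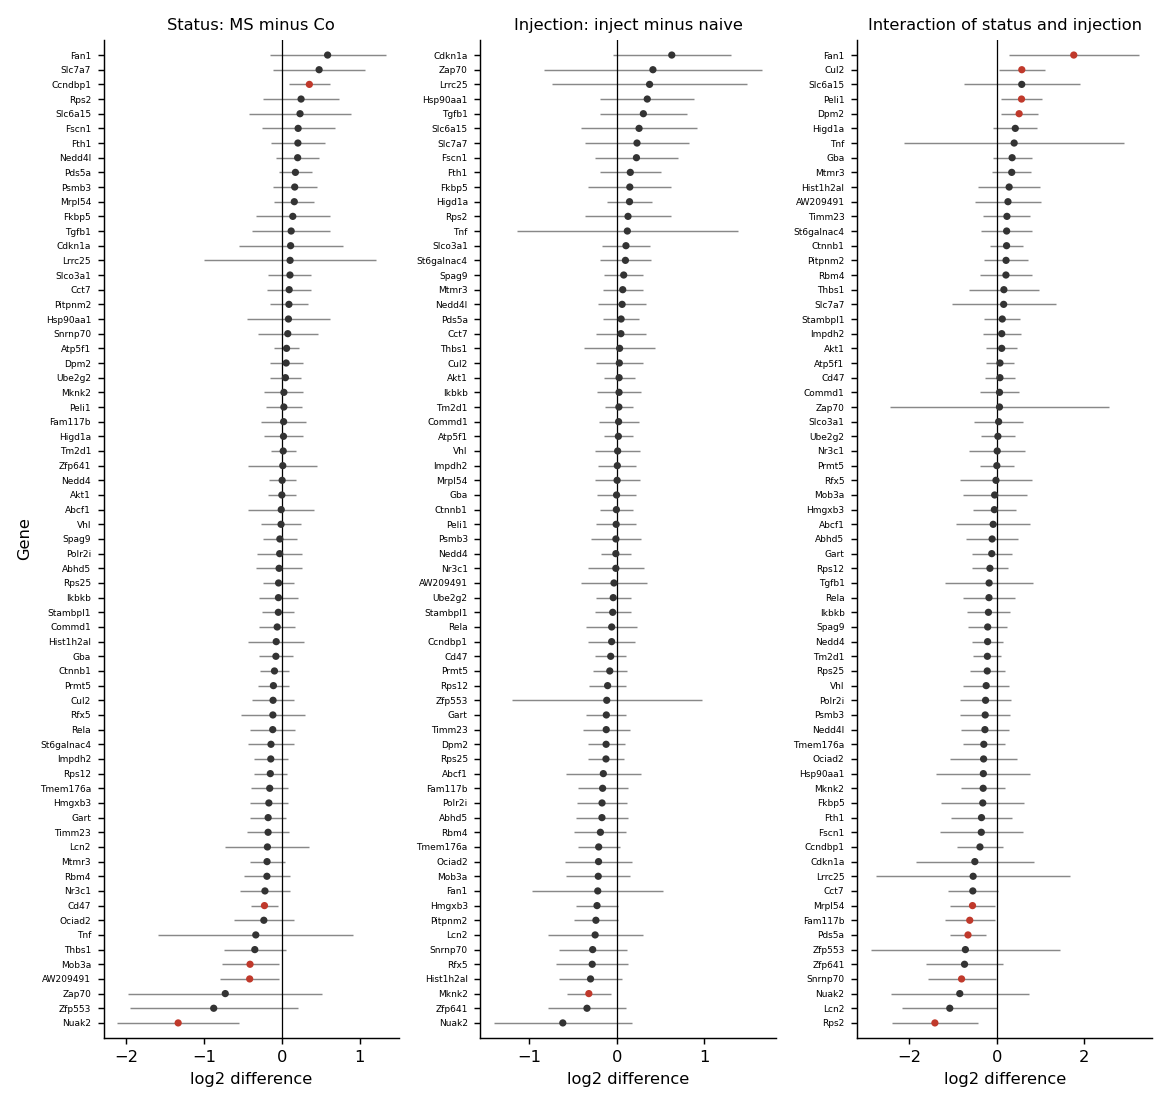
Log2 differences with 95% confidence intervals for 67 genes in the members (*Anxa2*, which chose the samples, is not drawn), for status (MS minus Co), injection (inject minus naive) and their interaction, each panel sorted by the difference. Red points have an unadjusted p under 0.05, and none of them in any panel had an adjusted p under 0.1.

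The interaction asked whether the inject to naive difference was unlike in MS and Co mice. None of the 69 genes passed (0% of the genes tested, limma, adjusted p under 0.1), with 10 genes at an unadjusted p under 0.05, 4 with a positive and 6 with a negative interaction. The lowest adjusted p was 0.167. Without the library of mouse 83 labelled vDG, 12 genes had an unadjusted p under 0.05 and the lowest adjusted p was 0.126, so none passed. The 95% confidence interval was within 2-fold in either direction for 41 of 69 genes, so this term was measured less precisely than status or injection.

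*Pds5a*, which encodes a regulator of cohesin, had medians of 446 in Co inject and 322 in Co naive members. In MS members the order was the opposite, 385 in inject and 474.5 in naive. The ranges of the 4 groups overlapped, at 323 to 526.4 (Co inject), 222 to 628 (Co naive), 302 to 492.7 (MS inject) and 364 to 570.4 (MS naive). The interaction was -0.66 (SE 0.20, adjusted p 0.167 by limma). Without the Pit-labelled Co naive library of mouse 239, at 628 the highest of all members, it was -0.78 with an adjusted p of 0.00748.

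*Rps2* had the same order of medians. The gene of this protein of the small ribosomal subunit has processed copies in the genome, and whether reads came from them was not tested. Its medians were 124 (Co inject), 88.4 (Co naive), 93.4 (MS inject) and 147 (MS naive). Its interaction was -1.42 (SE 0.48, adjusted p 0.167 by limma). Each of the 4 groups overlapped every other.

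In *Peli1* and *Dpm2* the inject median was below the naive median in Co members and above it in MS members. *Peli1*, a ubiquitin ligase of innate immune signalling, had medians of 365 (Co inject), 492 (Co naive), 482 (MS inject) and 344.5 (MS naive), with an interaction of 0.56 (SE 0.22, adjusted p 0.258). *Dpm2*, a subunit of the enzyme that makes dolichol phosphate mannose for glycosylation, had medians of 482 (Co inject), 571 (Co naive), 538 (MS inject) and 501.5 (MS naive), with an interaction of 0.51 (SE 0.21, adjusted p 0.258). Without the Pit-labelled Co naive library of mouse 239, 4 genes passed for the interaction (5.80% of 69), among them *Pds5a*, *Peli1* and *Rps2*. No other library changed the count of 0 for the interaction when it was left out.

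**Figure D4:**
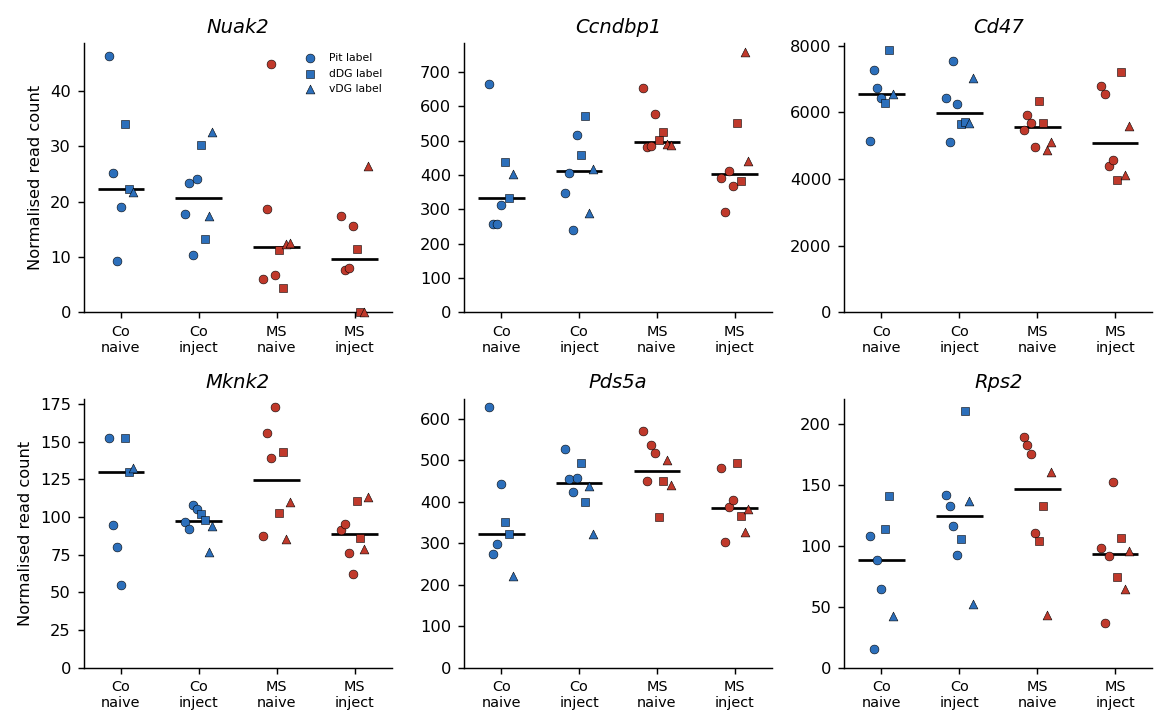
Normalised read counts of 6 genes in the members by label group, with 1 point per sample (circles Pit label, squares dDG label, triangles vDG label) and the group median as a line. *Nuak2* has lower medians in both MS groups (9.71 and 11.8) than in both Co groups (20.6 and 22.2), *Mknk2* has lower medians in both inject groups, and for *Pds5a* and *Rps2* the inject and naive medians change order between Co and MS, while the groups overlap for every gene.

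The calls for all 3 label terms depended on covariates. With 5 principal components of the residuals as covariates, a setting added after the data had been seen, 12 genes passed for status, 3 for injection and 16 for the interaction. *Anxa2* is in the last 2 counts and is not read as a call, which leaves 2 genes for injection and 15 for the interaction. These components were taken from the residuals of the same libraries and lower the residual spread by construction, and the genes that passed are not named here as results.

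Grouped by the lists of gene functions, none of the 14 lists had a gene that passed for status, injection or interaction. The list medians ran from -0.19 to 0.23 for status, from -0.18 to 0.23 for injection and from -0.50 to 0.37 for the interaction, against -0.01, -0.01 and -0.11 over all 69 genes. With the library of mouse 83 labelled vDG left out, they ran from -0.16 to 0.18, from -0.13 to 0.21 and from -0.65 to 0.46.

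For glucocorticoid receptor signalling, 3 of 6 listed genes were measured. Their median was 0.08 for status, or -0.0081 without the library of mouse 83 labelled vDG, and 0.15 for injection, or 0.21 without it. The ubiquitin and proteasome list (7 of 10 genes measured, *Psmb3*, *Ube2g2* and *Nedd4* among them) had a status median of 0.03, or 0.08 without that library, and an injection median of -0.0091, or -0.0028 without it. The cytosolic translation list (*Rps2*, *Rps12*, *Rps25*, *Abcf1* and *Mknk2*) had -0.0084 for status, or 0.03 without it, and -0.12 for injection, or -0.05 without it. Its 5 genes all had an interaction below 0, against 39 of all 69 genes, and their median was -0.22. Without the library the median was -0.04, and *Abcf1* and *Rps12* were above 0, at 0.01 and 0.08.

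The mitochondrial list (*Atp5f1*, *Higd1a*, *Mrpl54* and *Timm23*) had 0.04 for status and 0.01 for injection, or -0.0072 and -0.04 without the library of mouse 83 labelled vDG. Membrane transport (*Slc6a15*, *Slco3a1* and *Slc7a7*) had 0.23 for either term, which became 0.03 for status and -0.03 for injection without it. The cell cycle list (*Cdkn1a*, *Ccndbp1* and *Pds5a*) had 0.17 and 0.05, with little change. RNA synthesis and splicing (*Snrnp70*, *Rbm4*, *Polr2i* and *Prmt5*) had -0.07 and -0.18. All 4 genes were lower in inject members without passing, against 38 of all 69 genes that were lower.

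No gene of the remaining lists passed either. Medians for status and injection were 0.09 and 0.20 for the chaperones *Hsp90aa1* and *Cct7* (0.03 and 0.14 without the library of mouse 83 labelled vDG) and -0.16 and -0.06 for nucleotide synthesis (-0.10 and 0.0004 without it). They were -0.19 and 0.06 for the endosome and matrix genes *Thbs1* and *Spag9*, *Anxa2* itself being left out of this list, and -0.17 and 0.06 for immune cell genes, with 6 of 8 measured (-0.07 and 0.13 without that library). They were -0.06 and -0.09 for lipid and lysosome genes, -0.04 and -0.01 for glycosylation, and -0.05 and 0.01 for Akt and Wnt signalling, none of which moved by more than 1.5 times.

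Markers of immune cells that the tissue could hold were at or near the floor in many members. Of 5 listed markers 3 were measured, namely *Zap70* of T and NK cells, and *Lrrc25* and *Tnf* of myeloid cells. Their summed normalised read count was 0 to 63.6 in the members (median 15.8), against 5.05 to 110 in the samples with low *Anxa2* (median 42.6). Among Co members it ran from 2.37 to 48.3 (inject) and from 0 to 63.6 (naive), and among MS members from 3.27 to 34.7 (inject) and from 1.01 to 47.5 (naive). The lower sum in the members came from *Zap70*, with a median of 0.94 against 38.2, while *Lrrc25* had a median of 4.87 against 2.01 and *Tnf* was at 0 in 16 of 31 members and 52 of 64 other samples. *Zap70* was at 0 in 14 of 31 members and *Lrrc25* in 6. None of the 3 passed for status, injection or interaction.

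The region labels gave the only calls within the members. Averaged over the labels dDG and vDG and set against the label Pit, 1 of 69 genes (1.45%) passed, and between the labels dDG and vDG 1 of 69 genes (1.45%) passed. Both times the gene was *Abcf1*, which encodes a protein of the ABC family that acts in translation initiation (chromosome 17, 35956819 to 35969761, minus strand, GRCm38). In each comparison 3 genes had an unadjusted p under 0.05. When the library of mouse 83 labelled vDG was left out, this number was 1 for the comparison with Pit and 3 between dDG and vDG.

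In the 8 members labelled dDG, *Abcf1* had normalised read counts from 123 to 242 with a median of 203. In the 7 members labelled vDG it had 32.0 to 111 with a median of 62.7. The vDG values were 49.0 and 71.3 in Co inject, 80.9 in Co naive, 48.1 and 62.7 in MS inject, and 32.0 and 111 in MS naive. Every dDG member lay above every vDG member, and *Abcf1* was the only gene of 69 (1.45%) for which these labels did not overlap. Read depth separated the same labels, with 175072 to 227241 reads in the dDG and 120951 to 167266 in the vDG members. The Pit members, at 100875 to 162015 reads, were no deeper than the vDG members, and their *Abcf1* median was 199. The part of depth in the difference was not tested.

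The log2 difference of *Abcf1* was 1.60 (SE 0.32), with an adjusted p of 0.00229 by limma, and 1.54 with an adjusted p of 0.00685 without the library of mouse 83 labelled vDG. The members labelled Pit spanned 89.3 to 349 (median 199) and overlapped both. The average of the dDG and vDG labels minus Pit was -0.87 on the log2 scale (SE 0.23, adjusted p 0.0425 by limma). The group means on this scale were 7.55 (dDG), 5.95 (vDG) and 7.63 (Pit), so this difference rests on the low vDG members and is not a separate result from that between dDG and vDG. This call was lost when any of 3 libraries was left out, namely the dDG-labelled library of mouse 83 or the Pit-labelled library of mouse 97 or of mouse 95, with a highest adjusted p of 0.115. It was also lost without all members of mouse 83 (adjusted p 0.192), whereas the dDG to vDG call stayed (0.00619). The members had 41 to 435 reads of *Abcf1*.

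In the samples with low *Anxa2* the order of the labels was the reverse. *Abcf1* had 46.6 to 188 in the 24 samples labelled dDG (median 107) and 95.7 to 321 in the 24 labelled vDG (median 153), with a log2 difference of -0.60 (SE 0.16, adjusted p 0.00994 by limma). The dDG to vDG difference therefore differed between the ranges by 2.18 (SE 0.32, adjusted p 8.26e-08), in a comparison added after the data had been seen. Of 69 genes, 5 (7.25%) had an adjusted p under 0.1 in this comparison. One of them was *Anxa2*, which defines the ranges and is not read as a call, and the other 4 were *Abcf1*, *Higd1a*, *Rps25* and *Timm23*. Without the library of mouse 83 labelled vDG, *Abcf1* had an adjusted p of 4.55e-07, and *Higd1a*, *Rps25* and *Timm23* no longer passed (0.193, 0.313 and 0.121), nor was *Anxa2* under the threshold (0.464).

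**Figure D5:**
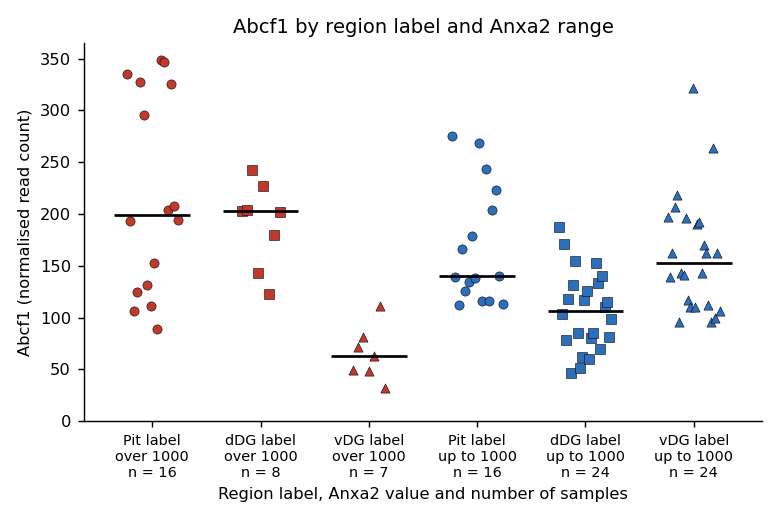
Normalised read counts of *Abcf1* by region label in the 31 members (red, *Anxa2* over 1000) and in the other 64 samples (blue, *Anxa2* up to 1000), with 1 point per sample and the median as a line. In the members all 8 dDG values (123 to 242) lie above all 7 vDG values (32.0 to 111), while in the other samples the vDG median of 153 lies above the dDG median of 107.

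Other genes came closest to a call between the dDG and vDG labels without passing. *Timm23*, a channel subunit for protein import into mitochondria, had 110.5 to 230 in the members labelled dDG and 190.1 to 328 in those labelled vDG, with a log2 difference of -0.54 (SE 0.21, adjusted p 0.330). *Rps25*, of the small ribosomal subunit, had 7766 to 12518 against 3765 to 8556, with a difference of 0.40 (SE 0.15, adjusted p 0.330), or 0.27 without the library of mouse 83 labelled vDG. *Zfp641*, a zinc finger gene, differed by 0.69 (SE 0.34), or 0.42 without that library, and *St6galnac4*, a sialyltransferase gene, by 0.41 (SE 0.22), each with an adjusted p of 0.738.

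Between the dentate labels and Pit, *Tmem176a* was at 1305 to 5066 (median 4291) against 3367 to 5915 (median 5031), and 14 of 15 dentate-labelled members lay below the Pit median. The log2 difference was -0.27 (SE 0.13, adjusted p 0.897), or -0.15 without the library of mouse 83 labelled vDG. *Timm23* differed by -0.31 (SE 0.14), *Pds5a* by -0.21 (SE 0.11) and *Rbm4*, a splicing regulator, by -0.28 (SE 0.16), each with an adjusted p of 0.897 by limma. In these genes the ranges of the labels overlapped.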

How the data were processed

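Micropunches of mouse brain regions were measured by TruSeq Targeted RNA sequencing on a MiSeq, with 69 assays per library. According to the study's methods, the authors filtered reads on quality and length in PRINSEQ lite, mapped them by BWA onto the assay manifest and used DESeq2 for normalization. The submitters' processing notes name the build mm10. The values they deposited are a signal, namely reads per assay divided by a size factor of the sample. In every library they are whole multiples of 1 step (100% of 26220 values, tolerance 0.01 reads), which gave the reads per library. Of 384 samples 380 have values, and 0 pairs of libraries were identical. Groups were taken from the sample titles and mouse numbers.

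Values were transformed to log2(value + 1) and fitted with limma 3.58.1 (R 4.3.3, statmod 1.5.0), with terms for region label, status, injection and their interaction and the mouse as a random block. A change on this scale understates that of low genes. P-values were adjusted by Benjamini-Hochberg over the 69 genes of each term, with a threshold of 0.1 as in the study's methods. The differences between the *Anxa2* ranges came from a single fit to the 95 samples of both ranges with the terms nested in the range. The labels do not say whether separate dissections were made of a mouse, so p-values measure the spread between these samples. The mouse numbers in the titles were taken to tie samples of the same animal, which was not checked. The 9 pairs of members from a mouse had residual correlations of -0.459 to 0.448 (median -0.233, 2 above 0), and the correlation used for the block was -0.175 (-0.033 in both ranges).

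The members, the gene lists and the choice of tests were made with earlier results of these data known. Named genes were *Nr3c1*, *Hsp90aa1*, *Cdkn1a*, *Tmem176a*, the called genes, the 5 genes with the lowest p among those with a mean of at least 10 where fewer than 5 were called, and the listed genes. *Nuak2*, *Lrrc25*, *Fan1* and *Tnf* were under the study's minimum of 2000 reads. *Nuak2* was singled out after its values had been seen, as were *Fkbp5* and *Higd1a*. Gene positions are from GENCODE M21 (GRCm38). The steps were tested on simulated data. Alternatives were pseudocounts of 0.1 and 10, genes with a mean of at least 10, rescaled totals, a threshold of 0.05, no block, no region term, subsets of labels, 1 value per mouse, residual components, each member left out and, added later, mouse 83 left out. The recovered reads served to give depth, reads per gene and the floor, and entered no test. Count models and surrogate variables were planned but not run, because 69 values per library are fewer than the number set here for accepting recovered reads as counts. Python 3.11.15 with pandas 2.3.3, numpy 2.4.6 and matplotlib 3.10.9 was used for the rest. The results of 1 gene are not reported here.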

Additional observations from a re-analysis of the deposited data

Results flagged for a closer look

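Outlying values were sought in the 4 label groups of members for 24 genes other than *Anxa2* and for the reads, 100 groups in all. The distance of an extreme sample to its neighbour, relative to the range of its group, exceeded Dixon's 95% limit in 8 of them. Chance gives about 1 in 20 groups, and no cause was tested.

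The library of mouse 83 labelled vDG gave 2 of the 8 in MS inject. It had 394 for *Pitpnm2* (next member 274) and 400.1 for *Cdkn1a* (68.7). In the same label group the Pit-labelled library of mouse 83 had 127 for *Mob3a* (73.5), and its dDG-labelled library had 843 for *Dpm2* (581). All 3 libraries of mouse 83 were thus among these values.

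In Co inject the Pit-labelled library of mouse 243 had 362 for *Pitpnm2* (249), and that of mouse 235 had 225 for *Dpm2*, below the next member at 430.0. In MS naive the Pit-labelled library of mouse 101 had 44.8 for *Nuak2* (18.7), and that of mouse 105 had 11679 for *Rps25* (9392).

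The status difference of *Nuak2* differed between the members and the samples with low *Anxa2* by -1.40 on the log2 scale, by the limma test of the difference given above. In the low range 58 of 64 samples were at 0, so a fall was hardly measurable there, and without the library of mouse 83 labelled vDG the adjusted p was 0.133. The dDG to vDG label difference differed between these ranges by 2.18 for *Abcf1*, -0.52 for *Higd1a*, 0.49 for *Rps25* and -0.64 for *Timm23*, by the same kind of test, which was added after the data had been seen. Without the library of mouse 83 labelled vDG the last 3 did not pass (adjusted p 0.193, 0.313 and 0.121).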

How the results depend on the processing

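Counts of genes called for the 8 comparisons were equal to the values reported, or within 1.5 times of them, in 294 of 330 recomputations, higher in 27 and lower in 9. For status the count was 1 with a pseudocount of 10 (*Nuak2*) and 1 with genes of a mean of at least 10 (*Nuak2*), against 0. For the status difference between the ranges it was 0 with a pseudocount of 0.1, 0 with genes of a mean of at least 10 (*Nuak2* is not tested there), 0 with the low range limited to Pit labels, and 2 with a pseudocount of 10 or rescaled totals (*Nuak2* and *Ccndbp1*), against 1. With 5 residual components the counts were 12 for status, 3 for injection, 16 for the interaction, 9 for dentate labels against Pit, 8 for dDG against vDG, 8 for the status difference and 16 for the interaction difference, since these components remove residual spread by construction. *Anxa2*, which is not read as a call, is in the counts for injection, the interaction, dDG against vDG and the interaction difference, which are 2, 15, 7 and 15 without it. Without the members of mouse 83, also added later, the counts were 0 for dentate labels against Pit and 0 for the status difference, against 1 each. For the other changes the cause was not tested.

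With 1 member left out, the counts ranged from 0 to 2 for status, 0 to 4 for the interaction, 0 to 1 for dentate labels against Pit, 1 to 1 for dDG against vDG, 0 to 2 for the status difference, and 0 to 0 for injection and for the injection and interaction differences. *Nuak2* passed for status in 8 of 31 such fits (adjusted p 0.0169 to 0.319 over all of them), and *Ccndbp1* without the Pit-labelled Co naive library of mouse 239. The status difference of *Nuak2* passed in 30 of 31 (0.00838 to 0.133), failing without the library of mouse 83 labelled vDG.

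Without the mouse as a replicate block, the counts were 0, 0, 0, 1, 1, 1, 0 and 0, the same as with it. Their order is status, injection, interaction, dentate against Pit, dDG against vDG and the 3 differences between ranges. *Nuak2* had an adjusted p by limma of 0.336 for status and 0.0560 for the difference, against 0.116 and 0.0385 with the block. Leaving out the block changed none of these counts, nor the count of 5 genes, *Anxa2* included, for the dDG to vDG difference between the ranges (*Abcf1* adjusted p 5.86e-08), a fit added after the data had been seen.

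Rescaled totals shifted the median dDG to vDG difference of all genes by 0.11 and the other medians by less than 0.1. Of the named genes, 3 small differences that did not pass changed sign. For *Nr3c1* by injection the values were 0.0073 without the block, 0.070 in Pit labels alone, 0.041 with 1 value per mouse, 0.0095 with residual components, 0.089 without the members of mouse 83, 0.041 in dentate labels without them and -0.070 to 0.091 with 1 member left out. For *Cdkn1a* by status they were -0.016, -0.28, -0.33, -0.0009, -0.25, -0.16 and -0.17 to 0.25 in the same order. For *Hsp90aa1* by status they were -0.079 in Pit labels alone and -0.042 to 0.20 with 1 member left out.

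The planned count models (edgeR, DESeq2) and surrogate variables (sva) were not run, since 69 values per library are fewer than the number set here for accepting recovered reads as counts. Low-count genes such as *Nuak2* (at most 54 reads in a member) are limited by depth. With 7 or 8 members per label group, a difference that misses the threshold is not shown to be 0.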
